A study of Mus musculus with 12 samples.

Results

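The 10 genes described here, Cdkn1a, Mdm2, Ccng1, Bax, Bbc3, Phlda3, Eda2r, Zmat3, Aen, and Trp53inp1, are well-known transcriptional targets of p53. They were chosen by symbol among the 24421 gene symbols of the raw count tables, all 10 were found, and all 10 passed the filter on low counts in each comparison. The choice was made with earlier results of these data known. Poly(A) RNA from bulk liver tissue was sequenced in 12 libraries, which are the tumor and the non-tumoral liver of 6 aged mice on a standard diet. There were 4 pairs from p21+/Tert mice, T-HCC662 with NT662, T-HCC663 with NT663, T-HCC941 with NT941, and T-HCA992 with NT992, and 2 pairs from p21+/TertCi mice, TCi-HCC981 with NT981 and TCi-HCA984 with NT984. In these names NT is a non-tumoral liver, HCC a hepatocellular carcinoma, HCA a hepatocellular adenoma, and the number is that of the animal.

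The mice were older than 18 months. In both genotypes 1 allele of Cdkn1a carries a Tert cassette driven by the Cdkn1a (p21) promoter, which codes for active telomerase in p21+/Tert and for a catalytically inactive form, TertCi, in p21+/TertCi. The other Cdkn1a allele and the endogenous Tert locus are unmodified, so the reads of Cdkn1a and of Tert could not be split between the knock-in and the other alleles. Neither genotype is a control without a cassette, and no library of a WT mouse was analysed here. The liver titled p_961 was taken as NT662 by elimination, as its count column is also headed. Some fits without pairing are also given without both libraries of this pair. The fits with the mouse as a block and the counts of mice were not repeated without it. Each animal gave 1 liver and 1 tumor library, and with 2 p21+/TertCi mice every p-value measures only the spread between these few animals. In bulk tissue, fewer cells of a type and less RNA per cell cannot be told apart.

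p53 is a transcription factor that is held at a low level by the ubiquitin ligase Mdm2 and is released from it by DNA damage, oncogene activity, and other stress. It then switches on genes that halt the cell cycle, repair DNA, or start apoptosis, together with genes that feed back on p53 itself. Cdkn1a codes for p21, an inhibitor of cyclin-dependent kinases that arrests the cell cycle and is a marker of senescent cells, and in these mice its promoter also drives the cassette.

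p53 binds a pair of decameric half-sites, and the promoters of 5 of the 10 genes are shown here because the Cdkn1a promoter drives the knock-in, Bax and Phlda3 differed between tumor and liver, and Mdm2 and Ccng1 are feedback genes that did not pass the test. The windows hold 250 bases before and 50 bases after the start site and are RefSeq sequences of the GRCm38.p6 reference, not of the knock-in allele. Each is written 5′ to 3′ on the gene's strand, and capitals mark a perfect match to the p53 half-site or a pair of adjacent half-sites with at most 1 mismatch in 20 bases.
Cdkn1a, upstream start, chr17:29090729-29091028, plus strand: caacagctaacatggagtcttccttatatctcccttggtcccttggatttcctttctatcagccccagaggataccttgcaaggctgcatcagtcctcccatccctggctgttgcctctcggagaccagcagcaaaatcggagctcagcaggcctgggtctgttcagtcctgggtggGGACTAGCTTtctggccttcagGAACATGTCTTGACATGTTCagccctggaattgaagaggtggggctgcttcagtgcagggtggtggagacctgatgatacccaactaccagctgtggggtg
Ccng1, chr11:40755237-40755536, minus strand: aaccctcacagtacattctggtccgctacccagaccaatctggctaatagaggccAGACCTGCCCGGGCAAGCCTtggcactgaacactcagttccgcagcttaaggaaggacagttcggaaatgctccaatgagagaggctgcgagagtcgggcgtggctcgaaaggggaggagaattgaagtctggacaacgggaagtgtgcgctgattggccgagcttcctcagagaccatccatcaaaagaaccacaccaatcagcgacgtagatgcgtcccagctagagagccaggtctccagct
Mdm2, chr10:117710709-117711008, minus strand: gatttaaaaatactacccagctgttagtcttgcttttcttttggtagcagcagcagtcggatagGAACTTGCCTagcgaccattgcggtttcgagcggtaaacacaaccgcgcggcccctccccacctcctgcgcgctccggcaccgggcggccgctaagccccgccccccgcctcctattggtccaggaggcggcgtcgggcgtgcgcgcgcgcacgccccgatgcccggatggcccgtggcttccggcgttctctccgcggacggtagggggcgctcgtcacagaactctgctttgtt
Bax, chr7:45466849-45467148, minus strand: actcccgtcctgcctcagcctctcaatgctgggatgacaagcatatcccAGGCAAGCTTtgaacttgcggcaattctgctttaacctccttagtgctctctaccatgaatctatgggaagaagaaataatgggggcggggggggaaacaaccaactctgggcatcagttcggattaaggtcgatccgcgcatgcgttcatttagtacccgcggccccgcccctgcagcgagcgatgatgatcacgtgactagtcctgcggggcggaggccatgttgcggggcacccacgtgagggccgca
Phlda3, chr1:135765835-135766134, plus strand: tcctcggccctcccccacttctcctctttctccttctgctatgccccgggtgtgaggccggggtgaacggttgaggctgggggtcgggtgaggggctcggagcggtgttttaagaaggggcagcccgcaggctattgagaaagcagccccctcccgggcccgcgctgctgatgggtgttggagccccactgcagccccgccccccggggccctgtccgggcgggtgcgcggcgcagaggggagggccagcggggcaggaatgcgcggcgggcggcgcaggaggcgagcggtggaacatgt

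The table held windows of 8 of the 10 genes (Zmat3 and Trp53inp1 were not among them). A half-site was found in 5 of these 8 genes (Cdkn1a, Mdm2, Ccng1, Bax, and Aen), against 8.36% of 32851 windows of the same length in the table. The 8 genes hold 12 windows, and a gene was counted if any of its windows matched. The counts of genes and the shares of windows are therefore in unlike units. An adjacent pair was found in Cdkn1a, beginning 51 bases before the upstream of its annotated starts, and in Ccng1, beginning 195 bases upstream, against 0.067% of all windows. The second annotated Cdkn1a start lies downstream, and its window (chr17:29093519-29093818) held no match. Which start the cassette uses is not given in the sources used here. The windows of Bbc3, Phlda3, and Eda2r held no match either. The Phlda3 window ends in gaacatgt, the first 8 bases of a possible half-site, and bases beyond it were not searched. The half-site reads as the same motif on both strands, neighbouring matches could overlap, and a match is a string of letters in this window only.

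The depth was 14571716 to 23932529 reads counted on genes per liver and 17471387 to 26170661 per tumor. Levels are counts per 1000000 (CPM) of the TMM-scaled library size, and differences are log2 fold changes with their SE from edgeR's quasi-likelihood test, called at a Benjamini-Hochberg adjusted p under 0.05 over all genes tested. Markers of hepatocytes were abundant in every library, with a summed level over 8 genes of 34303 to 58150 CPM in livers and of 16232 to 94914 CPM in tumors, and 2 of the 8 were lower in tumors. Of the other cell types, 1 of 6 endothelial markers was higher in tumors, and none of 7 macrophage, 6 T cell, 3 B cell, 6 stellate and fibroblast, 5 cholangiocyte, and 5 erythrocyte markers tested was called without pairing. Single tumors differed widely, however. The summed cholangiocyte markers ran from 17.8 CPM in T-HCC662 to 1064 CPM in T-HCA992 (livers 50.9 to 134 CPM). The stellate and fibroblast sum ran from 22.2 to 327 CPM in the same tumors (livers 43.3 to 223 CPM). T-HCC662 also had the lowest macrophage (60.7 CPM) and endothelial (50.8 CPM) sums. With the mouse as a block, the macrophage marker Cd68 (log2 1.34, adjusted p = 0.0206) and the fibroblast marker Col1a1 (2.12, 0.0377) were higher in tumors. In that fit the Kupffer cell markers Marco (−3.69, 0.0379) and Timd4 (−2.56, 0.0458) and the erythrocyte marker Alas2 (−1.36, 0.0345) were lower. The part of these cell types in the levels of single tumors and in the results of the blocked fit, the call of Cdkn1a included, was not tested. No marker was at 0 in all libraries.

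The levels of the 10 genes in livers and tumors were compared first. In the comparison of all 6 tumors with all 6 livers, 4 of the 10 genes were higher in tumors (Phlda3, Eda2r, Zmat3, and Bax) and none was lower, whereas 6.77% of the 13822 genes tested were higher and 3.91% were lower. Cdkn1a, whose level was 3.61 times higher in tumors on average, did not pass the test without pairing (log2 1.85 ± 0.70 SE, adjusted p = 0.111). With the mouse as a block, which compares each tumor with the liver of the same animal, Cdkn1a was called with the other 4 genes (6.87-fold, log2 2.78 ± 0.63 SE, adjusted p = 0.0239), and 8.64% of all genes were higher in that fit. DESeq2 without pairing also called 5 of the 10 genes, Cdkn1a among them (adjusted p = 0.0324). Over all genes DESeq2 called 1453 higher and 954 lower, against 936 and 540 with edgeR without pairing. Of the 10 log2 fold changes 9 were above 0, and their median was 0.67 against a median of 0.01 over all genes tested. No gene of the 10 had every tumor above every liver, a pattern seen in 2.93% of all genes.

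**Figure D1:**
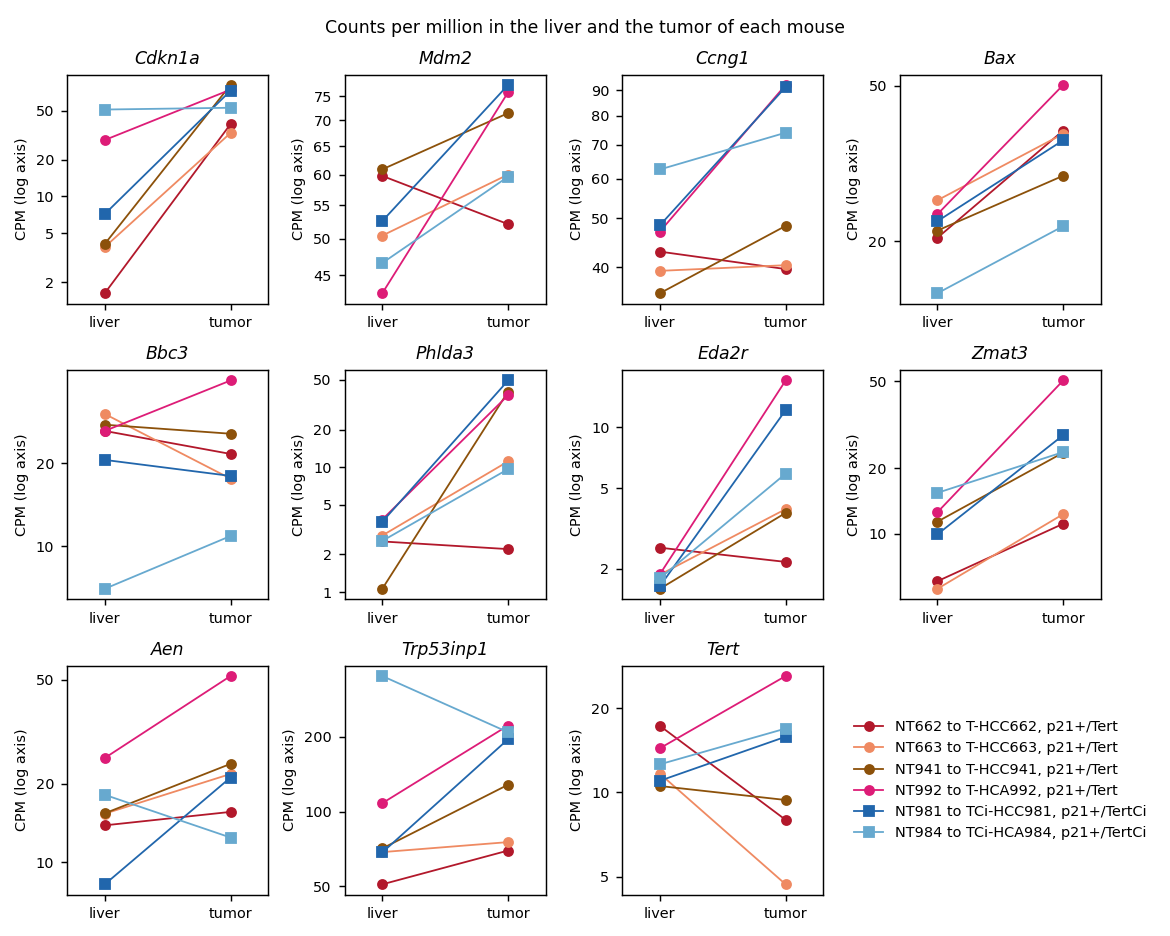
CPM on a log axis of the 10 genes and of Tert in the liver and the tumor of each mouse, with a line joining the libraries of 1 animal (round p21+/Tert, square p21+/TertCi). Cdkn1a lines start between 1.62 and 51.1 CPM in livers and end between 32.9 and 81.0 CPM in tumors, and the Phlda3 line of T-HCC662 stays flat while the other 5 rise.

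Cdkn1a is the gene of the cell-cycle arm and the knock-in locus (chromosome 17, 29090976 to 29100727, plus strand, GRCm38). From the lowest to the highest liver, its level was 1.62 CPM in NT662, 3.87 in NT663, 4.10 in NT941, 7.18 in NT981, 28.8 in NT992, and 51.1 in NT984. The tumors rose from 32.9 CPM in T-HCC663 and 38.9 in T-HCC662 to 52.8 in TCi-HCA984, 72.8 in TCi-HCC981, 74.2 in T-HCA992, and 81.0 in T-HCC941. Livers thus spanned a 31.4-fold range and tumors a 2.46-fold range, and 4 of 6 tumors lay above the highest liver. NT992 and NT984 stood apart from the other 4 livers, and the 23 reads counted in NT662 were the fewest. The tumor exceeded its own liver in 6 of 6 mice, by 1.03-fold for TCi-HCA984, 2.52-fold for T-HCA992, 6.97-fold for T-HCC663, 9.02-fold for TCi-HCC981, 15.2-fold for T-HCC662, and 16.1-fold for T-HCC941, on the CPM + 1 scale. The smallest of these belonged to the pair whose liver was almost as high as its tumor. Leaving out NT984 brought Cdkn1a past the threshold without pairing (log2 2.68, adjusted p = 0.0218). This was the only 1 of 12 fits that left out 1 library to do so. In the other fits the adjusted p was 0.0995 to 0.194.

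The livers also differed in genes outside the list, chosen here after their values were seen. Among Ddit4, Dbp, and Igfbp1, only Ddit4 set both livers with a high Cdkn1a level apart from all the rest. Of the genes on the list, Aen, Zmat3, and Trp53inp1 were also higher in NT984 and NT992 than in any other liver. The same held for the genes most like Cdkn1a named below, which were picked for that likeness. Ddit4, a stress-induced inhibitor of mTORC1, was at 37.8 CPM in NT984 and next highest in NT992, and at 4.52 to 7.10 CPM in the other 4. It is also among the other p53 target genes tested below. The clock gene Dbp was at 4.88 CPM in NT992 and 49.0 in NT984, at 38.9 in NT981, and at 182 to 462 CPM in the other 3 livers. Igfbp1, a secreted binding protein induced by fasting and stress, was at 705 CPM in NT984 and at 4.17 to 64.6 CPM in the other livers. The part of these differences between animals in the Cdkn1a result was not tested.

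Tert, the gene carried by the cassette, was set beside Cdkn1a because the Cdkn1a promoter drives it on the knock-in allele. Its level in livers was 10.5 CPM in NT941, 11.0 in NT981, 11.7 in NT663, 12.6 in NT984, 14.4 in NT992, and 17.3 in NT662. In tumors it was 4.69 CPM in T-HCC663, 7.98 in T-HCC662, 9.39 in T-HCC941, 15.8 in TCi-HCC981, 16.9 in TCi-HCA984, and 26.1 in T-HCA992. Tumors lay on both sides of the livers, and Tert was not called (log2 0.06 ± 0.34 SE, adjusted p = 0.933), nor with the block (−0.12, adjusted p = 0.821). Across the 6 tumors the log2 levels of Cdkn1a and Tert had a Pearson r of 0.71 (two-sided exact permutation p = 0.118, adjusted 0.236) and a Spearman rho of 0.6 (exact permutation p = 0.242, adjusted 0.483), neither past the threshold. Without T-HCC662 and T-HCC663, the tumors farthest from the median of Cdkn1a, r was −0.27, so the positive value rested on those 2 tumors. Across the 6 livers r was −0.07 (exact permutation p = 0.892) and rho was −0.09 (exact permutation p = 0.919), with adjusted values equal to the raw ones, and r was −0.86 without NT984 and NT992. These are 2 relations, and the adjusted values are over both. The 31.4-fold range of Cdkn1a in livers stood beside a 1.64-fold range of Tert.

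**Figure D2:**
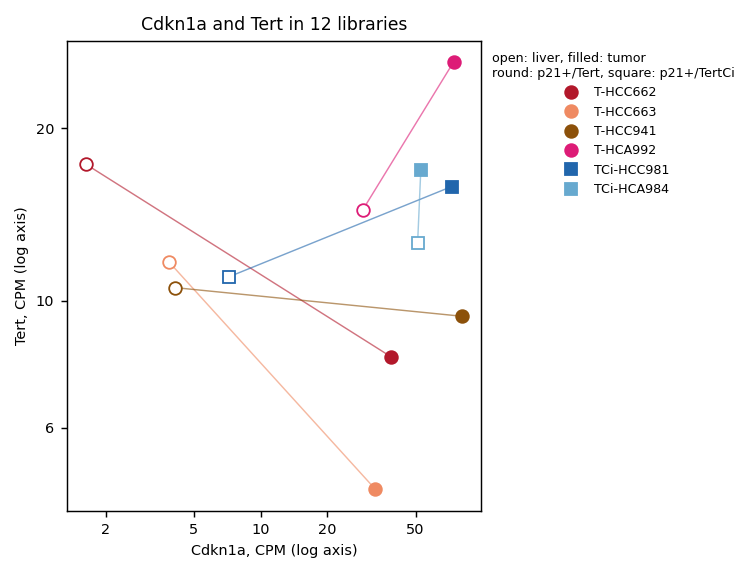
Tert against Cdkn1a in CPM, both axes logarithmic, for 6 livers (open) and 6 tumors (filled), with a line joining the libraries of 1 mouse. Cdkn1a is higher in each tumor than in its own liver, whereas Tert is higher in 3 of 6 mice and lower in the other 3.

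The feedback genes Mdm2, which codes for the ubiquitin ligase of p53, and Ccng1, which codes for cyclin G1, a partner of phosphatase PP2A that acts on Mdm2, were not called. Mdm2 ranged from 42.8 to 60.9 CPM in livers (median 51.5) and from 52.1 to 77.5 CPM in tumors (median 65.7), and 3 of 6 tumors exceeded the highest liver. Its fold change was 1.26 (log2 0.33 ± 0.14 SE, adjusted p = 0.161). Ccng1 ranged from 35.5 to 62.6 CPM in livers (median 45.0) and from 39.7 to 92.2 CPM in tumors (median 61.2), which is log2 0.48 ± 0.25 SE higher (adjusted p = 0.241). TCi-HCA984, TCi-HCC981, and T-HCA992 were the 3 tumors with the highest Ccng1 level, all above the highest liver, and the other 3 lay within the livers' range.

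The apoptosis genes were Bax and Bbc3, members of the Bcl2 family that permeabilize the outer mitochondrial membrane or free the proteins that do so, and Aen, a nuclease that takes part in apoptotic DNA fragmentation. Bax was at 14.7 CPM in NT984, 20.4 in NT662, 21.3 in NT941, 22.5 in NT981, 23.5 in NT992, and 25.5 in NT663. It was at 21.9 CPM in TCi-HCA984, 29.4 in T-HCC941, 36.3 in TCi-HCC981, 37.6 in T-HCC663, 38.4 in T-HCC662, and 50.2 in T-HCA992. All tumors but TCi-HCA984 lay above the highest liver, and TCi-HCA984 came from the mouse with the lowest liver level. The fold change was 1.66 (log2 0.74 ± 0.19 SE, adjusted p = 0.0289, or 0.0114 when blocked), and the tumor exceeded its own liver in 6 of 6 mice. The call without pairing was lost when NT662, NT941, NT984, T-HCA992, or TCi-HCC981 was left out (adjusted p of 0.0504 to 0.0659), and without both NT662 and T-HCC662 (0.0795).

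Bbc3, which codes for Puma, ranged from 7.03 to 30.1 CPM in livers (median 26.1) and from 10.9 to 39.8 CPM in tumors (median 19.8), and only T-HCA992 exceeded the highest liver. The log2 difference was −0.05 ± 0.34 SE (adjusted p = 0.947), and it changed sign when single libraries were left out. The lowest liver and the lowest tumor were NT984 and TCi-HCA984, a pair. Aen ranged from 8.23 to 25.1 CPM in livers (median 15.4) and from 12.4 to 51.6 CPM in tumors (median 21.4), which is log2 0.60 ± 0.34 SE higher (adjusted p = 0.276). Here too T-HCA992 was the one tumor above the highest liver.

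Phlda3 codes for a small pleckstrin-homology protein that competes with the kinase Akt for membrane lipids, and it had the largest fitted change of the 10 genes without pairing, whereas with the mouse as a block Cdkn1a had the larger log2 fold change (2.78 against 2.69). It was at 1.06 CPM in NT941, 2.54 in NT662, 2.57 in NT984, 2.84 in NT663, 3.65 in NT981, and 3.81 in NT992. T-HCC662 held 2.21 CPM, TCi-HCA984 9.65, T-HCC663 11.1, T-HCA992 37.7, T-HCC941 40.3, and TCi-HCC981 49.5. All tumors but T-HCC662 lay above the highest liver, and T-HCC662 lay within the livers' range. The fold change was 9.05 (log2 3.18 ± 0.63 SE, adjusted p = 0.00718, or 0.0289 when blocked), and the call held in all 12 fits that left out 1 library (adjusted p at most 0.0216).

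Eda2r, a receptor of the TNF receptor superfamily that binds ectodysplasin A2, lies on the X chromosome. It was at 1.59 CPM in NT941, 1.64 in NT981, 1.79 in NT984, 1.87 in NT663, 1.88 in NT992, and 2.54 in NT662. Its tumor levels were 2.16 CPM in T-HCC662, 3.78 in T-HCC941, 3.94 in T-HCC663, 5.91 in TCi-HCA984, 12.2 in TCi-HCC981, and 17.1 in T-HCA992. As for Phlda3, 5 of 6 tumors exceeded the highest liver and T-HCC662 did not. The paper reports a gain of the X chromosome in T-HCC663 and T-HCC941 and its loss in some tumors. The part of these changes in the Eda2r levels was not tested. The fold change was 3.97 (log2 1.99 ± 0.46 SE, adjusted p = 0.0164, or 0.0471 when blocked), and the call held in all 12 fits that left out 1 library (adjusted p at most 0.0396).

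Zmat3 codes for a zinc finger protein that binds RNA and regulates splicing. Its levels were 5.61 CPM in NT663, 6.08 in NT662, 9.96 in NT981, 11.4 in NT941, 12.6 in NT992, and 15.4 in NT984. T-HCC662 held 11.1 CPM, T-HCC663 12.3, T-HCC941 23.5, and the other tumors 23.7 in TCi-HCA984, 28.3 in TCi-HCC981, and 50.3 in T-HCA992. The lowest 2, which carry mutations of Ctnnb1, lay within the livers' range and the other 4 above it. The tumor exceeded its own liver in 6 of 6 mice. The fold change was 2.44 (log2 1.28 ± 0.37 SE, adjusted p = 0.0441, or 0.00904 when blocked). Without pairing, the call held in 3 of 12 fits that left out 1 library, namely without NT984, T-HCC662, or T-HCC663, and was lost without any other single library (adjusted p up to 0.0991).

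Trp53inp1, a stress protein of p53 signaling and autophagy, ranged from 50.9 to 351 CPM in livers (median 69.9) and from 69.7 to 222 CPM in tumors (median 162). NT984 had the highest level of all 12 libraries, and no tumor exceeded it. The log2 difference was 0.32 ± 0.49 SE (adjusted p = 0.730), and without NT984 it was 1.03 (adjusted p = 0.0767).

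Per kilobase of exon, the mean level in livers was highest for Trp53inp1 (18.5 CPM per kb), followed by Bax (13.5), Ccng1 (13.1), Bbc3 (10.8), Mdm2 (10.3), Cdkn1a (4.53), Aen (2.76), Phlda3 (1.76), Zmat3 (0.889), and Eda2r (0.320). In tumors Trp53inp1 (23.1 CPM per kb), Bax (22.6), and Ccng1 (18.3) led again, and Cdkn1a (16.5) and Phlda3 (16.1) stood above Mdm2 (13.0), Bbc3 (10.5), Aen (4.21), Zmat3 (2.18), and Eda2r (1.27). The ranges over libraries of each pair of neighbours in these orders overlapped, except that every liver held less Eda2r than the lowest Zmat3 level.

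**Figure D3:**
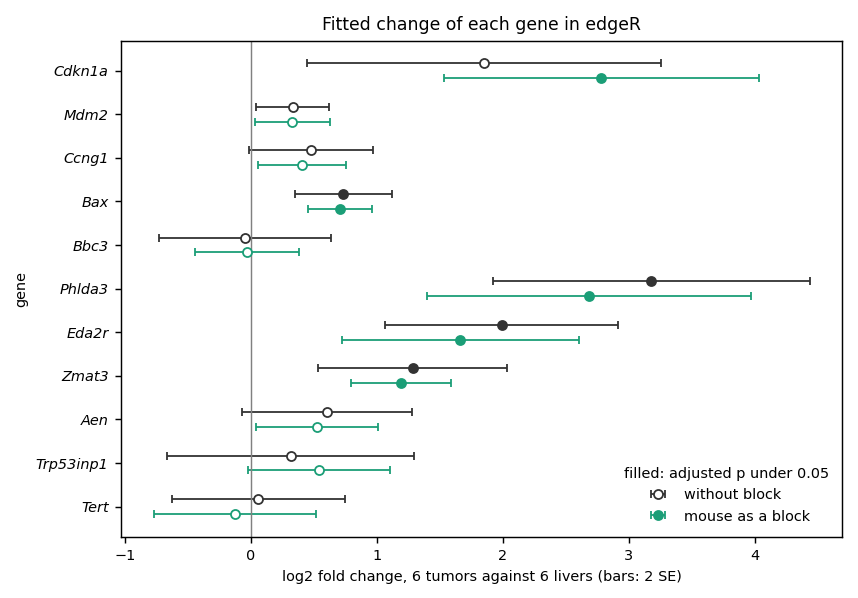
Log2 fold change of each gene between 6 tumors and 6 livers with bars of 2 SE, from edgeR without and with the mouse as a block, where filled points passed an adjusted p of 0.05. Phlda3, Eda2r, Zmat3, and Bax are filled in both fits, and Cdkn1a moves from 1.85 to 2.78 and is filled with the block only.

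The tumors were then described one by one against the liver of the same mouse, as differences of log2(CPM + 1). The 10 genes had a median difference of 0.02 in T-HCC662, 0.44 in TCi-HCA984, 0.51 in T-HCC663, 0.72 in T-HCC941, 1.05 in T-HCA992, and 1.34 in TCi-HCC981, whereas the median over all genes tested lay between −0.02 and 0.01 in each mouse. T-HCC662 had 5 of the 10 genes above its own liver, TCi-HCC981, T-HCC663, and T-HCC941 had 9, TCi-HCA984 had 8, and T-HCA992 had all 10, against 49.0% to 50.4% of all genes. Differences above 1, that is more than a doubling, were seen for 7 genes in T-HCA992 and 6 in TCi-HCC981, but for 1 to 3 in the other tumors, against 8.18% to 14.7% of all genes. Cdkn1a, Bax, and Zmat3 were the 3 genes above their own liver in all 6 mice, a pattern of 11% of all genes.

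The 10 genes did not move as 1 block. In T-HCC662 Cdkn1a was 3.93 above its liver while Phlda3 (−0.14) and Eda2r (−0.16) were not higher. In TCi-HCA984 the order was the opposite, with 0.05 for Cdkn1a against 1.58 for Phlda3 and 1.31 for Eda2r. T-HCC941 had the largest Phlda3 difference (4.33) but 0.88 for Eda2r, and T-HCA992 had the largest Eda2r difference (2.65) with 1.33 for Cdkn1a. Bbc3 was the gene with the fewest tumors above their own liver (2 of 6, T-HCA992 and TCi-HCA984).

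**Figure D4:**
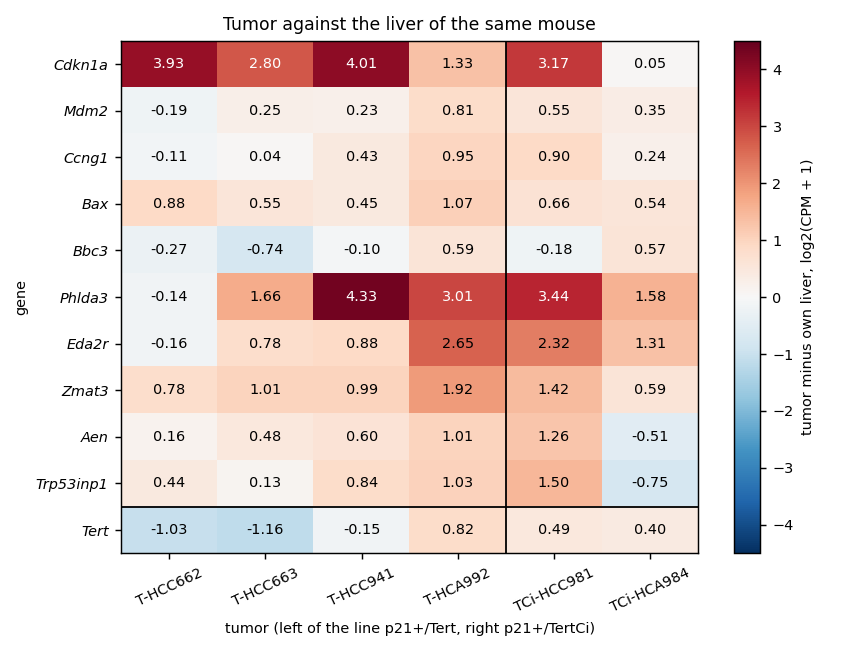
Difference of log2(CPM + 1) between each tumor and the liver of the same mouse for the 10 genes and Tert (rows) in 6 tumors (columns), with the value printed in each cell and red for higher in the tumor. Cdkn1a, Bax, and Zmat3 are above 0 in every column, and the column of T-HCC662 is near 0 or below it for Mdm2, Ccng1, Bbc3, Phlda3, and Eda2r.

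The comparison was repeated within each genotype, in 1 model over all 12 libraries. In p21+/Tert mice (4 tumors and 4 livers), 1 of the 10 genes, Phlda3, was higher in tumors (log2 3.13 ± 0.82 SE, adjusted p = 0.0464) and none was lower, against 4.2% and 2.3% of the 15182 genes tested. With the mouse as a block, 3 of the 10 were higher, namely Cdkn1a (log2 3.28, adjusted p = 0.0357), Bax (0.74, 0.0362), and Zmat3 (1.25, 0.0287), against 5.17% of all genes, and Phlda3 was lost (2.57, adjusted p = 0.108). Without pairing, Cdkn1a was log2 2.54 ± 0.85 SE higher (adjusted p = 0.102). Leaving out NT992 raised it to 4.15 and past the threshold (adjusted p = 0.0176), and no other fit that left out 1 library did so. The Phlda3 call was lost without any 1 of the 6 livers, T-HCC941, or T-HCA992, and without both NT662 and T-HCC662 (adjusted p = 0.0506), which left none of the 10 called. Eda2r was called without T-HCC662 (log2 2.05, adjusted p = 0.0472).

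In p21+/TertCi mice (2 tumors and 2 livers), none of the 10 genes was called by edgeR, as was none of the 15182 genes (0%). At an unadjusted p under 0.05 there were 1618 genes, of which 2 were among the 10, and DESeq2 called 375 genes and none of the 10. The 2 genes were Phlda3 (log2 3.22 ± 1.16 SE, adjusted p = 0.393) and Eda2r (2.37 ± 0.85 SE, adjusted p = 0.394). Their fitted values were close to those in p21+/Tert mice, 3.13 for Phlda3 and 1.76 for Eda2r.

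The genotypes were compared by the difference between them in the change from liver to tumor (the interaction term). None of the 10 genes was called, nor any gene tested (0%), with 556 genes at an unadjusted p under 0.05, none of them among the 10, and 10 genes called by DESeq2, which gave no adjusted p for 8 of the 10. For Cdkn1a the difference was −1.46 (p21+/TertCi minus p21+/Tert, interval of 2 SE −4.27 to 1.34, adjusted p = 1). For Phlda3 it was 0.09 (−2.56 to 2.74), for Eda2r 0.61 (−1.40 to 2.62), and for Bax −0.14 (−0.91 to 0.63). The intervals of Cdkn1a, Phlda3, and Eda2r span more than a doubling in both directions, so that a difference of that size was not detectable with 2 p21+/TertCi mice. The tumors of the genotypes also differ in the mutations that the paper reports. Among them are those in Ctnnb1 in T-HCC662 and T-HCC663, in Egfr in T-HCC941, and in Hras in TCi-HCC981. The paper also reports copy number changes. Mdm4 was amplified in T-HCC941 and TCi-HCC981, and Cdkn2a and Cdkn2b were deleted in T-HCC662 and TCi-HCC981. Here and between the tumors of the genotypes, active or inactive Tert and these mutations and copy number changes cannot be told apart.

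Between the livers of the genotypes, edgeR called none of the 10 and no gene at all (0%), with 756 genes at an unadjusted p under 0.05 and 42 called by DESeq2, none of them among the 10. Cdkn1a was at 9.60 ± 12.9 CPM (SD, n = 4) in p21+/Tert livers and at 29.1 ± 31.0 CPM (SD, n = 2) in p21+/TertCi livers, a log2 difference of 1.62 with an interval of −0.29 to 3.53 (adjusted p = 0.930). The 2 of the 10 genes at an unadjusted p under 0.05 were Trp53inp1 (log2 1.52 ± 0.58 SE) and Bbc3 (−0.98 ± 0.43 SE), both with an adjusted p of 0.930, and for both NT984 held the extreme value of the 12 libraries. Between the tumors of the genotypes, none of the 10 was called and no gene was (0%), with 1752 genes at an unadjusted p under 0.05, none of them among the 10, and 372 called by DESeq2, none among the 10. Cdkn1a was at 56.8 ± 24.4 CPM (SD, n = 4) in p21+/Tert tumors and at 62.8 ± 14.1 CPM (SD, n = 2) in p21+/TertCi tumors, a log2 difference of 0.16 with an interval of −1.79 to 2.11 (adjusted p = 0.964).

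The 10 genes were set beside other genes of the pathway. These lists were also chosen with earlier results of these data known, so the shares over all genes beside them are descriptive. Trp53, which codes for p53, ranged from 18.6 to 42.2 CPM in livers and from 19.3 to 45.1 CPM in tumors (log2 0.22 ± 0.22 SE, adjusted p = 0.565), and Mdm4, an inhibitor of p53 related to Mdm2, was not called (log2 0.02 ± 0.21 SE, adjusted p = 0.960, and log2 −0.02 when blocked). Against 6.77% higher and 3.91% lower over all genes, 2 of 19 tested regulators and cofactors of p53 were higher in tumors and none was lower. They were Ppp1r13b, a p53-binding protein of the ASPP family (log2 0.52 ± 0.15 SE, adjusted p = 0.0412, or 0.0691 when blocked), and Cdkn2a, the locus of p16 and of the Mdm2 inhibitor Arf (log2 2.74 ± 0.81 SE, adjusted p = 0.0458). Cdkn2a was below 2 CPM in all 6 livers and reached 19.1 CPM in TCi-HCC981.

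Over all genes 6.77% were higher and 3.91% were lower in tumors. Of 49 other p53 target genes tested, 14 were higher in tumors and 1, Dcxr, was lower (log2 −1.31 ± 0.36 SE, adjusted p = 0.0336). Their median log2 fold change was 0.50, against 0.67 for the 10 genes and 0.01 for all genes. The 8 of smallest p were Tnfrsf10b, Psrc1, Lif, Trp53i11, Ptp4a3, Polk, Kank3, and Btg2. Tnfrsf10b, a death receptor for Trail, was at 0.387 to 1.05 CPM in livers and 5.43 to 17.3 CPM in tumors (log2 3.82 ± 0.36 SE, adjusted p = 1.9e-04). Every tumor thus exceeded every liver, a pattern seen in 2.93% of all genes and favoured by the choice of genes of smallest p. Psrc1, a microtubule-binding protein of the mitotic spindle, was below 1 CPM in all livers and at 1.49 to 83.5 CPM in tumors (log2 5.83 ± 0.98 SE, adjusted p = 0.00333), and its 3 highest tumors, T-HCA992, T-HCC941, and TCi-HCC981, were also the 3 highest for Phlda3. Lif, a cytokine of the interleukin 6 family, was listed at 0 in 3 livers and at 0.63 to 15.2 CPM in tumors (adjusted p = 0.00353). Btg2, an antiproliferative protein, rose 4.96-fold (adjusted p = 0.0157) but not in T-HCC663 (−0.02 against its own liver). The translesion polymerase gene Polk rose by 0.68 on the log2 scale (adjusted p = 0.0130), Trp53i11 3.86-fold (0.00660), the phosphatase gene Ptp4a3 2.97-fold (0.00745), and Kank3 1.88-fold (0.0136).

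Of the CDK inhibitor genes related to Cdkn1a, 3 of 6 tested were higher in tumors, Cdkn2a, Cdkn2b, and Cdkn2c, against 6.77% of all genes. Cdkn2b, which codes for p15, was at 0.152 to 0.537 CPM in livers and at 1.75 CPM or more in tumors (log2 5.07 ± 0.75 SE, adjusted p = 0.00180), and Cdkn2c, which codes for p18, was at 2.96 to 5.97 CPM in livers and 8.68 to 29.1 CPM in tumors (log2 2.08 ± 0.27 SE, adjusted p = 0.00101). In the Bcl2 family, against the same 6.77% of all genes, 2 of 13 tested genes besides Bax and Bbc3 were higher. They were Bok (log2 1.83 ± 0.36 SE, adjusted p = 0.00693) and Bcl2l1, which codes for the anti-apoptotic Bcl-xL (log2 0.82 ± 0.19 SE, adjusted p = 0.0153).

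Cell-cycle genes that p53 and p21 repress through the DREAM complex were examined as the opposite pole of the pathway. Of 20 tested, 16 were higher in tumors and none was lower, against 6.77% and 3.91% of all genes. The median log2 fold change of the 20 was 2.48. Mki67, a marker of cycling cells, was at 3.07 CPM in TCi-HCA984, 17.9 in TCi-HCC981, 29.4 in T-HCC941, 49.2 in T-HCA992, 53.5 in T-HCC663, and 54.3 in T-HCC662, and at 0.339 to 10.2 CPM in livers (log2 3.08 ± 0.74 SE, adjusted p = 0.0194). Cdk1, the kinase of mitotic entry, rose 7.09-fold (adjusted p = 0.0122). Mki67 and Cdkn1a were both higher than in the own liver in 6 of 6 tumors, and T-HCC662 and T-HCC663, with the highest Mki67, had the lowest Cdkn1a of the tumors. In p21+/TertCi mice the median of the 22 genes tested was 0.82 with none called, as none was over all 15182 genes. In p21+/Tert mice it was 3.29 with 18 called, against 4.2% of all genes higher. None of the 22 was called for the difference between the genotypes, as none was over all genes.

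**Figure D5:**
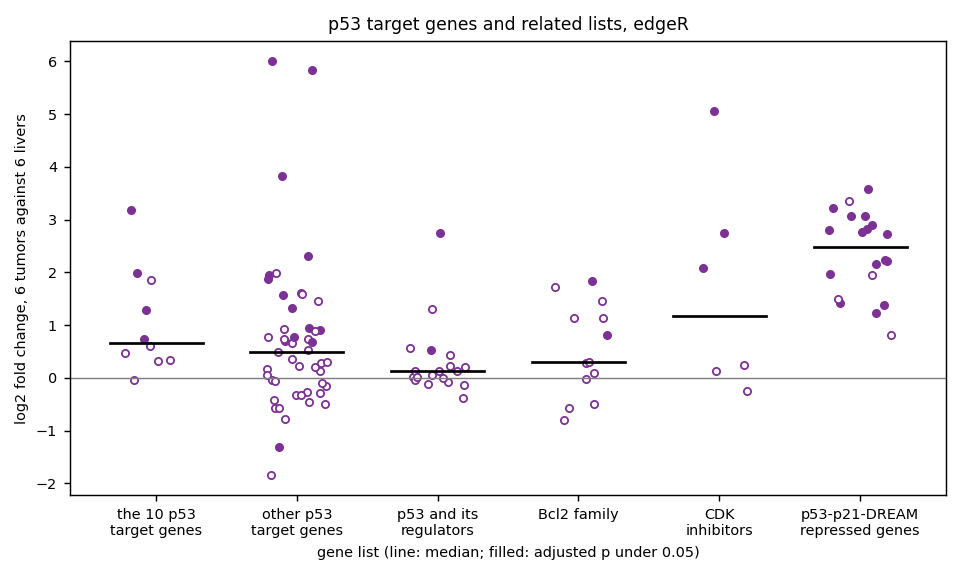
Log2 fold change between 6 tumors and 6 livers (vertical axis) of each tested gene in 6 lists, where filled points passed an adjusted p of 0.05 in edgeR and the line is the median of the list. The median is 0.67 for the 10 genes, 0.50 for other p53 target genes, 0.12 for p53 and its regulators, 0.30 for the Bcl2 family, 1.16 for the CDK inhibitors, and 2.48 for the repressed cell-cycle genes.

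The 5 genes whose log2 level followed that of Cdkn1a most closely over the 12 libraries were Atp2b2 (Pearson r of 0.96), Plekha1 (0.96), Slc3a2 (0.93), Ermp1 (0.93), and Spryd3 (0.93), out of 13822 genes. These values are descriptions over libraries that share 6 animals and 2 tissues. Atp2b2, a plasma membrane calcium pump, was at 0.630 to 1.29 CPM in the 4 livers with little Cdkn1a, at 7.51 CPM in NT992 and 8.29 CPM in NT984, and at 5.14 to 11.6 CPM in tumors.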

How the data were processed

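The authors deposited raw counts of reads per gene for 24421 symbols in each of 12 libraries. Per the study's methods, reads of low quality were removed and the rest aligned with Subread-align 1.6.4 to mm10 with mCherry added and counted with featureCounts 1.6.4. mCherry was not among the symbols, and the annotation release and the use of strand are not given in the sources used here. The authors corrected for sequencing run, which was not repeated because the run is not given in the sources used here. Groups are genotype and tissue as the labels give them. Genes were kept by filterByExpr and scaled by TMM, and tested with edgeR 4.0.16 (quasi-likelihood test, R 4.3.3), with Benjamini-Hochberg adjustment over all genes. The SE is the log2 fold change divided by the square root of F, and intervals are 2 SE to each side. Fits with the mouse as a block treat same-numbered tumor and liver libraries as 1 animal. As a check over 13822 genes, deviations from group means correlated at 0.19, 0.05, 0.04, 0.44, 0.55, and 0.55 within the pairs of NT662, NT663, NT941, NT992, NT981, and NT984 (the last 2 are equal by construction), with a median of −0.07 between mice. The members and lists were chosen with earlier results of these data known, and genes named beyond the 10 were Tert, Trp53, Mdm4, Mki67, Cdk1, up to 8 genes of smallest p per pathway list, and 5 genes most like Cdkn1a. Cop1 was matched as Rfwd2 and Dglucy as 9030617O03Rik, and Trac and Ighm were not found. No other counted gene shared 100 bases at 95% identity with any of the 10. Gene positions are from GENCODE on GRCm38. The alternatives were DESeq2 1.42.0, RLE size factors, no filter beyond 1 count, the mouse as a block, only the libraries compared, no pair of T-HCC662, each library left out, a pseudocount of 0.1 CPM, and the mean liver as reference. The scripts were tested on simulated data.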

Additional observations from a re-analysis of the deposited data

Results flagged for a closer look

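In each gene's groups of 4 and 6 libraries, a library was marked where it lay far from the others. The mark was set where its gap to the nearest, divided by the range of the group, exceeded Dixon's 95% critical value. Chance alone exceeds this value in about 1 of 20 independent groups, but the groups of 4 lie within those of 6. Of 44 groups examined, 7 held such a library. Cdkn1a was at 28.8 CPM in NT992, against 1.62 to 4.10 CPM in the other p21+/Tert livers. Aen was at 25.1 CPM in the same liver, against 13.8 to 15.4 CPM in those livers. T-HCA992 was high for Ccng1 (92.2 CPM) and Eda2r (17.1 CPM) among p21+/Tert tumors and for Aen (51.6 CPM) among all tumors. NT662 was high for Eda2r (2.54 CPM) and NT984 for Trp53inp1 (351 CPM) among all livers. NT992 and T-HCA992, from 1 mouse, hold 5 of the 7 values.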

How the results depend on the processing

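The 4 calls among the 10 genes between all tumors and all livers were also 4 with RLE size factors and without the filter, and 3 without the pair of T-HCC662, and leaving out 1 library gave 2 to 4. The calls over all genes were 1476, but 2407 with DESeq2 and 863 to 1988 when 1 library was left out. In p21+/Tert mice, DESeq2 gave 5 of the 10 (2109 genes), the replicate block by mouse gave 3, the libraries compared alone gave 2, and the fit without the pair of T-HCC662 gave 0 (303 genes), against 1 of the 10 (986 genes); leaving out 1 library gave 0 to 2 (240 to 1192 genes). In p21+/TertCi mice, RLE size factors called 1 gene, no filter 2, DESeq2 375, and fits without 1 library 0 to 7, against 0. Between the tumors of the genotypes, no filter called 3, DESeq2 372, and fits without 1 library 0 to 2, and DESeq2 called 10 for the interaction and 42 between livers. Signs near 0 turned for Bbc3 (0.0051 without that pair, −0.30 to 0.089 without 1 library, and −0.37 to 0.070 in p21+/Tert mice), Tert (−0.12 with the block, −0.24 to 0.25 without 1 library), and Mdm4 (−0.024 with the block, −0.11 to 0.15 without 1 library). The cause was not tested. Other than for the calls given in the report, the block changed no call of the 10 genes. The medians over the 6 mice of the differences from the own liver and the correlations of Cdkn1a with Tert kept their direction with a pseudocount of 0.1 CPM and RLE size factors, as did those medians with the mean liver of the genotype as reference, but the values of single mice were not compared across these settings. Depth limits Eda2r, Phlda3, and Cdkn1a in livers, where few reads were counted.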

Other observations

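Over all genes 6.77% were higher and 3.91% were lower in tumors. Of 12 tested genes associated with senescence other than Cdkn1a, 4 were higher in tumors and none was lower, with a median log2 fold change of 0.91 against 0.01 for all genes. They were Cdkn2a and Cdkn2b, Mmp12, a macrophage elastase (log2 3.69 ± 0.64 SE, adjusted p = 0.00418), and Igfbp3, a carrier of insulin-like growth factors (log2 2.15 ± 0.61 SE, adjusted p = 0.0392, or 0.159 when blocked).

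The clock gene Arntl was at 0.918 to 2.73 CPM in NT662, NT663, and NT941 and at 9.45 to 27.7 CPM in NT984, NT981, and NT992. The acute phase gene Lcn2 was at 4776 CPM in NT984 and 5422 CPM in TCi-HCA984, and at 13.6 to 787 CPM in the other livers. These genes were chosen after their values were seen.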
